A study of Mus musculus with 40 samples.

Results

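PU.1 and C/EBPb peaks overlapped at 4434 sites of the mouse macrophage genome that carried no SMARCA5 peak and no CTCF peak. The peak lists do not separate wild-type from Smarca5 knockout cells. The SMARCA5 list also does not separate untreated from lipopolysaccharide-stimulated cells, so an overlap is not tied to a single condition. Of 16753 C/EBPb peaks that overlapped PU.1 and were free of CTCF, 26.5% lacked SMARCA5 (95% Wilson interval 25.8 to 27.1%) and the other 12319 held it. The share rests on the breadth of the SMARCA5 list: it was 43.5% with SMARCA5 peaks over 5 kb left out, and 67.4% with only the upper 50% of that list by fold enrichment. The sites without SMARCA5 had a median PU.1 -log10 q of 0.463 times that of the sites with SMARCA5. For PU.1 fold enrichment the ratio of medians was 0.910. The PU.1 and C/EBPb summits were closer together at the sites without SMARCA5. These sites lay a median of 11381 bp from the nearest SMARCA5 peak.

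PU.1, encoded by Spi1, is an ETS-family transcription factor that binds regulatory DNA early in myeloid differentiation and can open closed chromatin. C/EBPb is a basic leucine zipper factor that binds many macrophage enhancers beside PU.1. SMARCA5, also called SNF2H, is the ATPase of ISWI complexes, which slide and space nucleosomes. CTCF is the zinc-finger factor of insulators and loop anchors.

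The sites were chosen by overlap of measured peaks alone. A site is a C/EBPb peak on chromosomes 1 to 19 or X that shares at least 1 bp with a PU.1 peak and no base with any CTCF or SMARCA5 peak. The C/EBPb list held 30960 peaks, of which 30895 were on these 20 chromosomes and 18143 overlapped PU.1. A further 1390 of the latter touched CTCF and were left out. The 4434 sites were thus 14.4% of the C/EBPb peaks on these chromosomes. A single PU.1 peak overlapped 4426 of them and 2 PU.1 peaks overlapped the other 8. For those 8, the PU.1 peak with the nearest summit was taken as the partner. Overlap with PU.1 and the lack of SMARCA5 and CTCF are therefore properties of the selection and not results.

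The cells were bone marrow-derived macrophages of Csf1r-Cre wild-type mice and of Smarca5 lox/lox Csf1r-Cre knockout mice. All were differentiated over 7 days with 4-hydroxytamoxifen every day, so the controls carried the same Cre driver and received the same drug. PU.1, C/EBPb and CTCF were immunoprecipitated from untreated cells, in 2 wild-type and 2 knockout libraries each. SMARCA5 was immunoprecipitated after digestion with micrococcal nuclease, an enzyme that cuts between nucleosomes, in 8 libraries of both genotypes, untreated or after 2 h of lipopolysaccharide at 10 ng/ml. Each protein was represented by 1 consensus peak list of the whole series, with no library, genotype or stimulus attached to a peak. No comparison of genotypes or stimuli was therefore made, and a PU.1 or C/EBPb peak may come from cells of either genotype. A SMARCA5 peak may likewise come from either genotype, and from untreated or stimulated cells. Overlap with a SMARCA5 peak is therefore not by itself evidence of SMARCA5 binding in wild-type cells. The files hold no expression values, so the labelled cell type could not be checked by markers. Whether replicates came from separate animals is not given in the sources used here, and read depth is unknown.

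Other classes of sites served as comparison. The first was the 12319 sites with PU.1 and SMARCA5. The second was 7479 C/EBPb peaks with neither PU.1, CTCF nor SMARCA5, and the last was 28262 PU.1 peaks with neither C/EBPb, CTCF nor SMARCA5. Peaks of a list are not replicates, and no p-value was computed. Intervals of shares and medians are 95% intervals that cover counting error only. A difference of medians has a combined range, taken from the outer bounds of both intervals, which is wider than a 95% interval. Each difference is given with the number of the 20 chromosomes that showed its direction.

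The PU.1 and C/EBPb summits of the sites without SMARCA5 were a median of 50 bp apart (48 to 52). The summit is the base of highest signal in a peak. The middle 50% of the sites had distances from 24 to 103 bp, and the widest gap was 1060 bp. Summits were within 50 bp of each other at 50.4% of the sites (49.0 to 51.9%), within 100 bp at 74.3% and within 300 bp at 92.0%. At 88.0% of the sites each summit lay inside the other factor's peak. The C/EBPb peak shared a median of 87.6% of its length with PU.1, and 25.3% of the C/EBPb peaks were wholly inside the PU.1 peak.

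The PU.1 summit had the lower coordinate at 2258 sites and the higher coordinate at 2147, so neither side of the genomic axis prevailed (50.9% against 48.4%). The strand of the sites was not known. Both summits fell on the same base at only 29 sites. The distribution of signed offsets had a shallow dip at its centre, with 194 sites from -10 to -1 bp and 200 from 0 to 9 bp. The neighbouring bins on each side held more, 268 from -20 to -11 bp and 244 from 10 to 19 bp.

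Shared sites with SMARCA5 had their summits farther apart, with a median of 64 bp (63 to 66). The median was smaller without SMARCA5 on 20 of 20 chromosomes, by 8 to 24 bp. Within 50 bp fell 41.3% of the sites with SMARCA5, and within 100 bp 65.1%. The share of shared sites that lacked SMARCA5 was lower where the summits were farther apart than 50 bp. It was 30.8% at 0 to 10 bp (28.4 to 33.3%), 31.3% at 11 to 25 bp, 29.9% at 26 to 50 bp and 26.6% at 51 to 100 bp. Beyond that it was 22.8% above 100 and up to 200 bp and 17.8% above 300 bp (16.2 to 19.6%). Shared sites with SMARCA5 also had wider peaks and a higher PU.1 -log10 q, as given below. Within deciles of PU.1 -log10 q, a comparison chosen after seeing the data, the weighted difference (without minus with SMARCA5) was -18.9 bp, with no interval computed. Peak width was not held alike in it, and the part of width and of PU.1 strength in the summit distance was not tested.

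**Figure D1:**
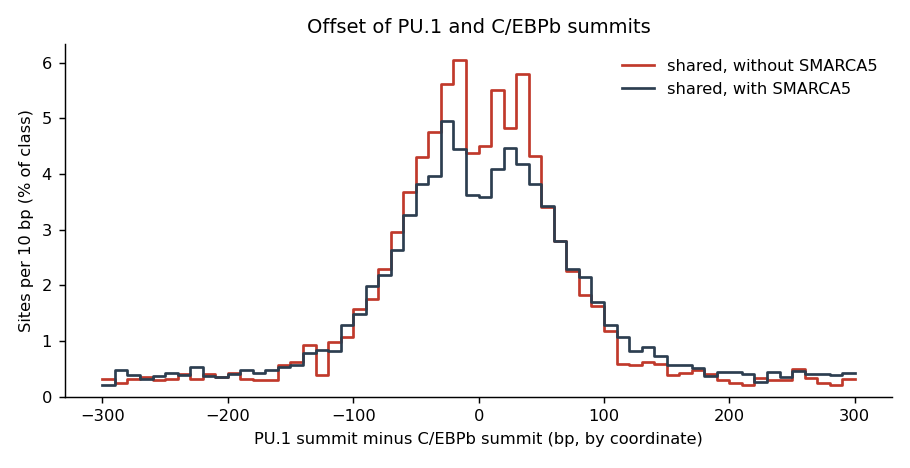
Signed distance from the C/EBPb summit to the PU.1 summit (x axis, bp, by coordinate) as a percentage of each class per 10 bp bin (y axis), for the 4434 shared sites without SMARCA5 and the 12319 with it. Both curves peak at 10 to 50 bp on either side of 0, and the curve without SMARCA5 is higher there, with 50.4% of sites within 50 bp against 41.3%.

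Strength was read from the authors' per-peak values: the fold enrichment over local background and the -log10 q, in which q is the p-value adjusted for multiple testing. The 2 scales rank peaks alike (Spearman's rho across the 4434 sites 0.93 for C/EBPb and 0.89 for PU.1). The -log10 q also depends on the number of reads, so it can differ between sites of the same fold. Read counts and local background are not given for the peaks.

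C/EBPb had a median fold enrichment of 12.6 at the sites without SMARCA5 (12.4 to 12.8), with 10% of sites below 7.17 and 10% above 24.0. It was 11.5 at shared sites with SMARCA5 (11.3 to 11.6) and lower than at the sites without on 19 of 20 chromosomes. With SMARCA5 peaks over 5 kb left out, this difference was 0.296 and its interval included 0 (-0.102 to 0.675). On the -log10 q scale the medians had the opposite order, 47.4 without SMARCA5 (46.2 to 49.0) against 52.8 with it (51.2 to 54.7), lower without on 17 of 20 chromosomes. With only the upper 50% of the SMARCA5 list this difference changed sign, to 5.69 higher without SMARCA5. It was -1.02 (combined range -4.73 to 2.68) with SMARCA5 peaks over 5 kb left out. In the upper 50% of C/EBPb peaks by -log10 q it was -35.1, so no direction is read from it. Where C/EBPb bound with neither PU.1 nor SMARCA5, its fold enrichment was 12.1 and its -log10 q 44.9. The C/EBPb signal at the sites without SMARCA5 was thus near that of C/EBPb peaks lacking PU.1, and higher on 17 of 20 chromosomes by fold and 14 of 20 by -log10 q.

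PU.1 at these sites was between its level at lone PU.1 peaks and its level at shared sites with SMARCA5. Its median -log10 q was 53.2 (51.3 to 55.4), against 34.5 at PU.1 peaks with neither C/EBPb nor SMARCA5 and 114.8 at shared sites with SMARCA5 (111.5 to 118.4). Both gaps had the same direction on 20 of 20 chromosomes. The PU.1 fold enrichment was 12.7 (12.4 to 12.9), against 10.9 for lone PU.1 and 13.9 with SMARCA5. It was higher than for lone PU.1 on 20 of 20 chromosomes and lower than with SMARCA5 on 18 of 20. The gap on the -log10 q scale was much the larger.

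At a like PU.1 fold enrichment the gap in PU.1 -log10 q persisted. Shared sites were split into quintiles (5 equal parts) of PU.1 fold, and in each quintile the median -log10 q without SMARCA5 was 0.517 to 0.640 times that with SMARCA5. In the middle quintile the fold enrichments were 13.4 and 13.6 while the -log10 q values were 52.5 and 101.5. For C/EBPb the corresponding ratio was 0.896 in the lowest quintile of C/EBPb fold and 0.643 in the highest. Peak widths differed in the same direction. The PU.1 peaks were 459 bp wide without SMARCA5 and 541 bp with it, the C/EBPb peaks 429 bp and 471 bp, and both medians were smaller without SMARCA5 on 20 of 20 chromosomes. The part of peak width in these differences was not tested. The same relation seen from the other side, within deciles of PU.1 -log10 q, was a PU.1 fold enrichment 2.76 higher without SMARCA5.

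**Figure D2:**
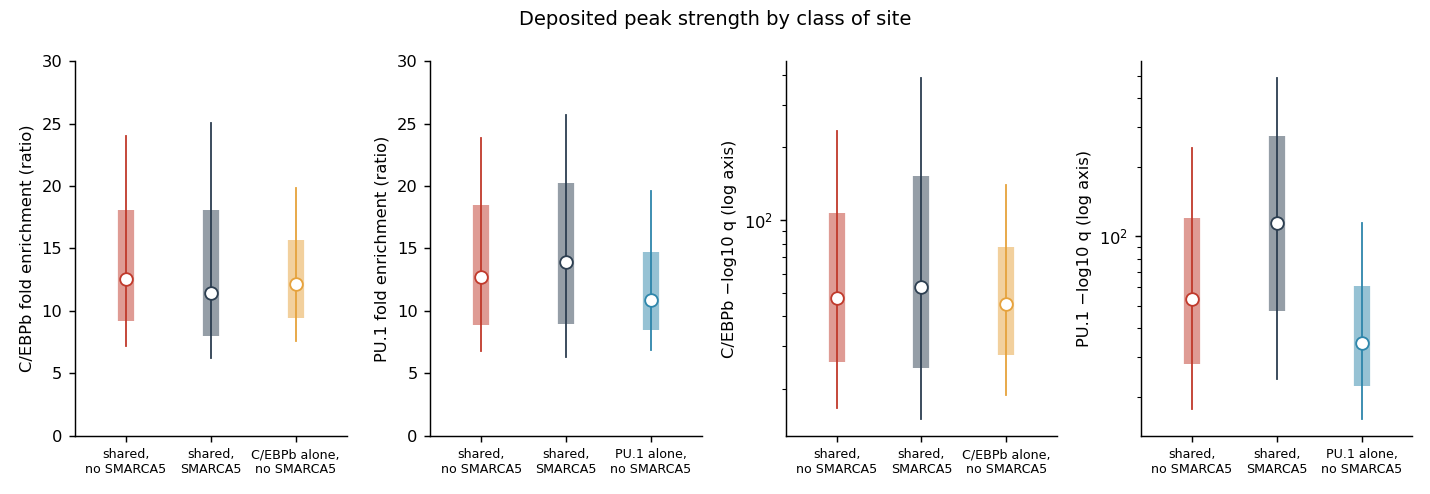
Fold enrichment (linear axes) and -log10 q (log axes) of C/EBPb and PU.1 by class of site. Circles are medians, bars run from the 25th to the 75th percentile and lines from the 10th to the 90th. The PU.1 -log10 q panel shows the widest separation, with medians of 53.2, 114.8 and 34.5 from left to right.

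The share of shared sites that lacked SMARCA5 was lower in each higher quintile of PU.1 -log10 q. It was 41.0% in the lowest quintile (39.3 to 42.6%), then 35.3%, 25.99% and 19.7%, and 10.3% in the highest (9.34 to 11.4%). The highest quintile was below the lowest on 20 of 20 chromosomes, by 14.5 to 48.0 percentage points. Over quintiles of PU.1 fold enrichment the course was weaker and not steady, with 25.3% in the lowest, 32.2% in the next and 21.2% in the highest.

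For C/EBPb the course was not steady. Over quintiles of C/EBPb -log10 q the share without SMARCA5 was highest in the middle, at 31.9%, and lower at both ends, at 23.5% and 18.8%. Over quintiles of C/EBPb fold enrichment it was 17.3% in the lowest quintile, 32.1% in the middle and 25.5% in the highest. The highest quintile by fold exceeded the lowest on 20 of 20 chromosomes, whereas the highest quintile by -log10 q was below the lowest on 17 of 20.

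With both factors considered by quintile of -log10 q, SMARCA5 was most often missing where PU.1 was in its lowest quintile and C/EBPb in its middle quintile. There 372 of 739 sites lacked it (50.3%, 46.7 to 53.9%). It was least often missing where PU.1 was in its highest quintile and C/EBPb in the middle, with 54 of 619 sites (8.72%, 6.75 to 11.2%). With C/EBPb in its highest quintile the share was nearly the same (8.88%, 7.08 to 11.1%). Within each quintile of C/EBPb the share without SMARCA5 in the highest PU.1 quintile was between 8.72% and 12.7%. At the opposite end, in the lowest PU.1 quintile, it was between 32.2% and 50.3%.

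**Figure D3:**
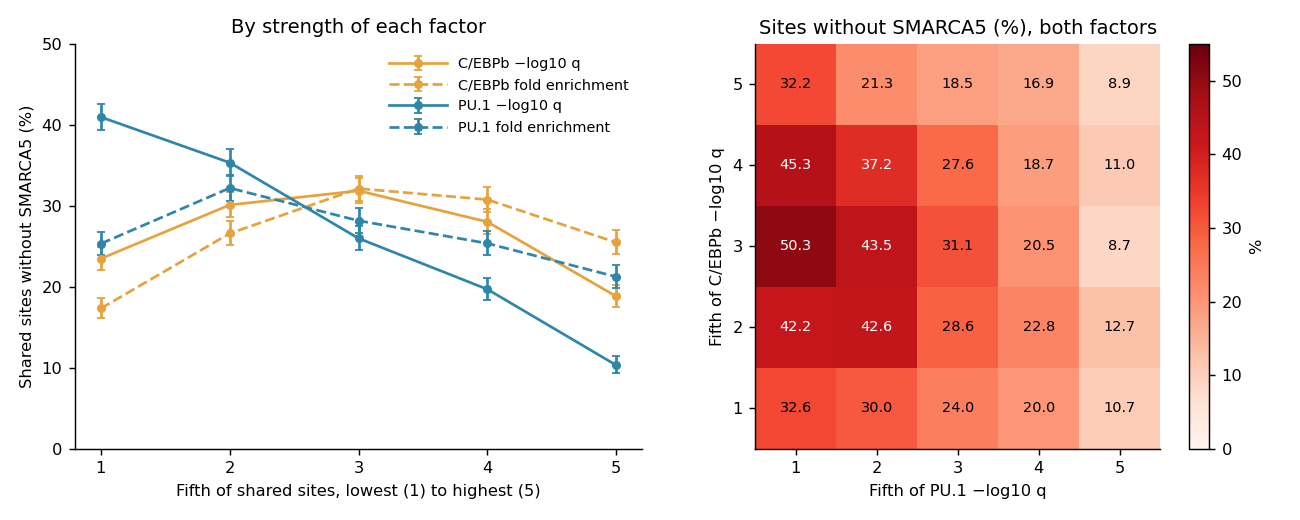
Percentage of the 16753 shared sites that lacked SMARCA5. Left, by quintile of each measure, with 95% Wilson intervals; right, by quintile of PU.1 (x) and C/EBPb (y) -log10 q, each cell printed in percent. The PU.1 -log10 q line falls from 41.0% to 10.3%, and the right-hand columns of the grid are the palest in every row.

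The strengths of the 2 factors showed almost no rank correlation among the sites without SMARCA5. Spearman's rho between C/EBPb and PU.1 -log10 q was -0.005 across the 4434 sites, and 0.041 between the fold enrichments. These are descriptions across sites that share libraries. C/EBPb held the better percentile within its own list at 49.0% of the sites without SMARCA5 (47.6 to 50.5%), and at 36.2% of those with it, by -log10 q. Only 53 sites without SMARCA5 were in the top 10% of both lists by -log10 q, out of 628 such shared sites (8.44%, 6.51 to 10.9%). Where both factors were in the lower 50% of their lists, 1036 of 2610 shared sites lacked SMARCA5 (39.7%). Strong C/EBPb with PU.1 in its lower 50% lacked SMARCA5 at 23.05% of 551 sites, and the converse at 12.1% of 1669. These shares are all by -log10 q, and by fold enrichment the contrasts were weaker. By fold, 108 sites without SMARCA5 and 377 with it were in the top 10% of both lists. In the lower 50% of both were 829 without it and 2489 with it. For strong C/EBPb with PU.1 in its lower 50% the counts were 195 and 561, and for the converse 265 and 1099.

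Sites without SMARCA5 still included some of the strongest peaks of either list. The C/EBPb peak with the highest fold enrichment on the 20 chromosomes was one of them, as was the PU.1 peak in place 3 of 67674. Among the top 1000 C/EBPb peaks by fold, 153 were sites without SMARCA5 (15.3%, 13.2 to 17.7%) and 626 were shared sites with it. Their share of all C/EBPb peaks on the 20 chromosomes was 14.4%. By -log10 q they were 90 of the top 1000 C/EBPb peaks (9.00%, 7.38 to 10.9%), a smaller share than among all. Their PU.1 partners were 6.55% of the 67674 PU.1 peaks, 9.50% of the top 1000 by fold (95 peaks, 7.83 to 11.5%) and 5.20% of the top 1000 by -log10 q (52 peaks, 3.99 to 6.76%).

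The C/EBPb peak leading by fold was chr17:75017773-75018370 on mm39, 598 bp wide. Its C/EBPb fold enrichment was 35.5 with a -log10 q of 2090. The PU.1 partner reached 27.1, the summits were 49 bp apart, and the nearest SMARCA5 peak was 4939 bp away. In second place was chr7:24705979-24706565, with a C/EBPb fold of 35.2, a PU.1 fold of 24.0 and SMARCA5 at 26991 bp. In the third, chr1:54562780-54563364, C/EBPb reached 34.4 while PU.1 was only 9.90, with summits 4 bp apart. The next were chr2:166076726-166077340 and chr6:125387870-125388447, with C/EBPb folds of 33.8 and 33.7. Their PU.1 folds were 16.3 and 16.6. PU.1 thus ranged from below to well above its median of 12.7 at the 5 sites with the most C/EBPb.

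The strongest PU.1 partner was at chr7:4276773-4277177, with a PU.1 fold enrichment of 34.9 and a PU.1 -log10 q of 1146. C/EBPb there was only 10.1, below its median. At chr2:84797658-84798157 PU.1 reached 34.3 and C/EBPb 22.3, with both summits on the same base and SMARCA5 29905 bp away. PU.1 folds of 33.6 were found at each of chr7:3901087-3901583, chr11:115100029-115100402 and chr7:137022325-137022761, where C/EBPb was 16.4, 15.9 and 8.57. No site was among the leading 5 of both factors.

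High levels of both factors at one site were found at chr1:166166610-166167140, which had the best sum of ranks. C/EBPb reached 31.8 and PU.1 31.5, both summits were on the same base, and the nearest SMARCA5 peak was 37548 bp away. At chr6:22398323-22398850 the folds were 32.3 and 30.2, and at chr8:118252914-118253408 they were 30.6 and 31.1. The next were chr3:65780465-65781016 with 33.3 and 29.7, and chr2:59292387-59292904 with 29.5 and 29.9. All 5 had summits within 52 bp of each other and no SMARCA5 peak nearer than 6859 bp.

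SMARCA5 was usually some kilobases away. The median distance from the edge of a site to the nearest SMARCA5 peak was 11381 bp (10978 to 11834), with 10% of sites nearer than 2810 bp and 10% farther than 65293 bp. Only 56 sites had SMARCA5 within 1 kb (1.26%, 0.974 to 1.64%), 2011 had it within 10 kb (45.4%), and 297 had none within 100 kb (6.70%, 5.999 to 7.47%). The nearest was 6 bp away.

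PU.1 peaks without C/EBPb lay farther from SMARCA5, with a median of 13882 bp, and the sites with both factors were nearer on 20 of 20 chromosomes. C/EBPb peaks without PU.1 had a median of 10881 bp, a difference whose direction held on 14 of 20 chromosomes and turned under other settings. Within 1 kb of SMARCA5 were 5.51% of C/EBPb peaks alone (5.01 to 6.05%) and 2.72% of PU.1 peaks alone, against 1.26% of the sites with both. Within 20 kb the shares were 67.6%, 66.5% and 60.8% for the sites with both, C/EBPb alone and PU.1 alone.

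**Figure D4:**
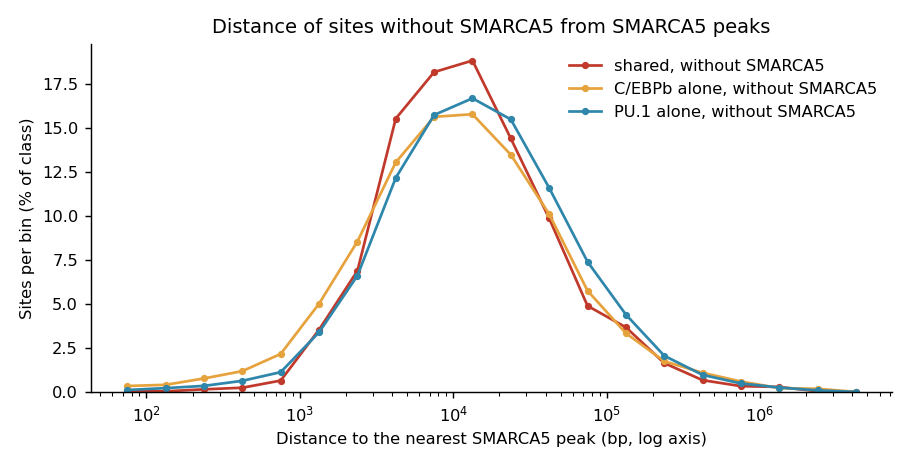
Distance to the nearest SMARCA5 peak (x axis, bp, log axis) as a percentage of each class per bin (y axis), for sites that share no base with SMARCA5. Points below 56 bp are not drawn. The shared sites have the lowest curve under 1 kb, where 1.26% of them lie, and the highest in the 3 bins from 3162 to 17783 bp.

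By -log10 q, the strength of the sites varied little with this distance, whereas the PU.1 fold enrichment was lower near SMARCA5. PU.1 -log10 q had medians from 51.4 to 56.6 over 6 distance classes, and C/EBPb -log10 q from 43.0 to 53.2. The C/EBPb fold enrichment was 11.3 within 2 kb and at most 13.9 farther out. The PU.1 fold enrichment differed most, at 9.55 for the 271 sites within 2 kb of SMARCA5, 11.4 from 2 to 5 kb and 14.0 for the 297 sites beyond 100 kb. Across sites its Spearman's rho with distance was 0.14 (n = 4434). The summits were 60 bp apart within 2 kb and 42 bp apart beyond 100 kb.

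The SMARCA5 peaks next to these sites were much like all others in the list. They were 3903 distinct peaks. Counted once for each of the 4434 sites, they had a median width of 2475 bp, against 2553 bp for all, and a median fold enrichment of 2.08, the same as for all. Their median -log10 q was 3.82, against 3.85 for all, so values were low throughout the SMARCA5 list. Counted in the same way, PU.1 was present in 73.8%, C/EBPb in 44.7% and CTCF in 26.3%. In the whole SMARCA5 list these shares were 72.6%, 44.4% and 25.5%.

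At the limit of the selection, 25 sites had SMARCA5 within 500 bp without touching it. Their median C/EBPb fold was 10.5 and their PU.1 fold 9.84. The 21 shared sites just on the other side, sharing 1 to 100 bp with SMARCA5, had 13.5 and 12.6. For the overlap with PU.1, 33 sites shared 1 to 50 bp with their partner, with a median summit distance of 429 bp and a C/EBPb fold of 10.7. The 40 C/EBPb peaks with PU.1 within 50 bp and no shared base had a C/EBPb fold of 12.0. The PU.1 partners of 10 sites touched SMARCA5, and those of 10 touched CTCF, although the C/EBPb peak did not.

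The surroundings of the sites held other binding. Within 50 kb of its C/EBPb summit a site had a median of 3 other C/EBPb peaks, 7 PU.1 peaks in all, 2 CTCF peaks and 3 SMARCA5 peaks. Shared sites with SMARCA5 had 3, 8, 2 and 5, the SMARCA5 peak on the site included. Peaks were counted by their middle, and 13.8% of the sites had no SMARCA5 peak in that window. Of the sites without SMARCA5, 39.6% had no shared site with SMARCA5 within 50 kb. The same share was 26.4% for shared sites with SMARCA5, 41.65% for C/EBPb peaks alone and 46.1% for PU.1 peaks alone. CTCF was farther from the sites without SMARCA5 than from shared sites with it, with a median distance of 21782 bp (20773 to 22662) against 17165 bp, on 19 of 20 chromosomes. The other classes without SMARCA5 were about as far from CTCF, with medians of 22792 bp for C/EBPb alone and 22824.5 bp for PU.1 alone.

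Of the sites, 2915 had no other such site within 50 kb (65.7%, 64.3 to 67.1%). The share with no such site in that window was much alike in the other classes. It was 66.7% of shared sites with SMARCA5, 67.1% of C/EBPb peaks alone and 70.0% of PU.1 peaks alone. The remaining sites without SMARCA5 formed 642 chains of neighbours at most 50 kb apart. Of these chains 55 had at least 4 sites, and the longest had 8. On chromosome 6, chr6:146014558-146055958 held 5 sites and no SMARCA5 or CTCF peak, and all 5 C/EBPb peaks there were such sites. Their C/EBPb folds in order of position were 16.1, 17.4, 9.48, 12.0 and 11.6, and their PU.1 folds 29.4, 25.1, 9.48, 12.9 and 15.4. The nearest SMARCA5 peak was 6372 bp from one and 40052 bp from another. The stretch chr6:125372034-125413079 held 5 sites with 3 SMARCA5 and 2 CTCF peaks, all of which lay between the last 2 sites by position. One site was the C/EBPb peak with a fold of 33.7 described above, and the other 4 had C/EBPb folds from 8.14 to 10.2.

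The densest stretch, chr9:3006293-3038208, had peaks of another kind than the chromosome 6 stretches. Its 8 sites lay among 10 C/EBPb, 10 PU.1 and 3 CTCF peaks in 31.9 kb, with SMARCA5 no nearer than 296528 bp. The C/EBPb peaks were 910 to 4990 bp wide, and both summits fell on the same base at 7 of the 8. Fold enrichments were low, 2.36 to 12.5 for C/EBPb and 2.67 to 11.6 for PU.1, while the C/EBPb -log10 q ran from 572.8 to 13879 and the PU.1 -log10 q from 216.1 to 3294. These 8 sites gave 7 of the 29 with coinciding summits and 6 of the 18 wider than 1 kb. Low fold enrichment thus stood beside very high -log10 q, in wide peaks of both factors with coinciding summits. No list of regions prone to spurious signal was applied here, so whether the stretch belongs to one was not tested, and the counts of coinciding summits and of chains include it. A -log10 q above 2000 in either list was found at 8 sites without SMARCA5, 4 of them in this stretch. With all shared sites above that value left out, the share without SMARCA5 and the medians and differences recomputed all stayed within their intervals or combined ranges.

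**Figure D5:**
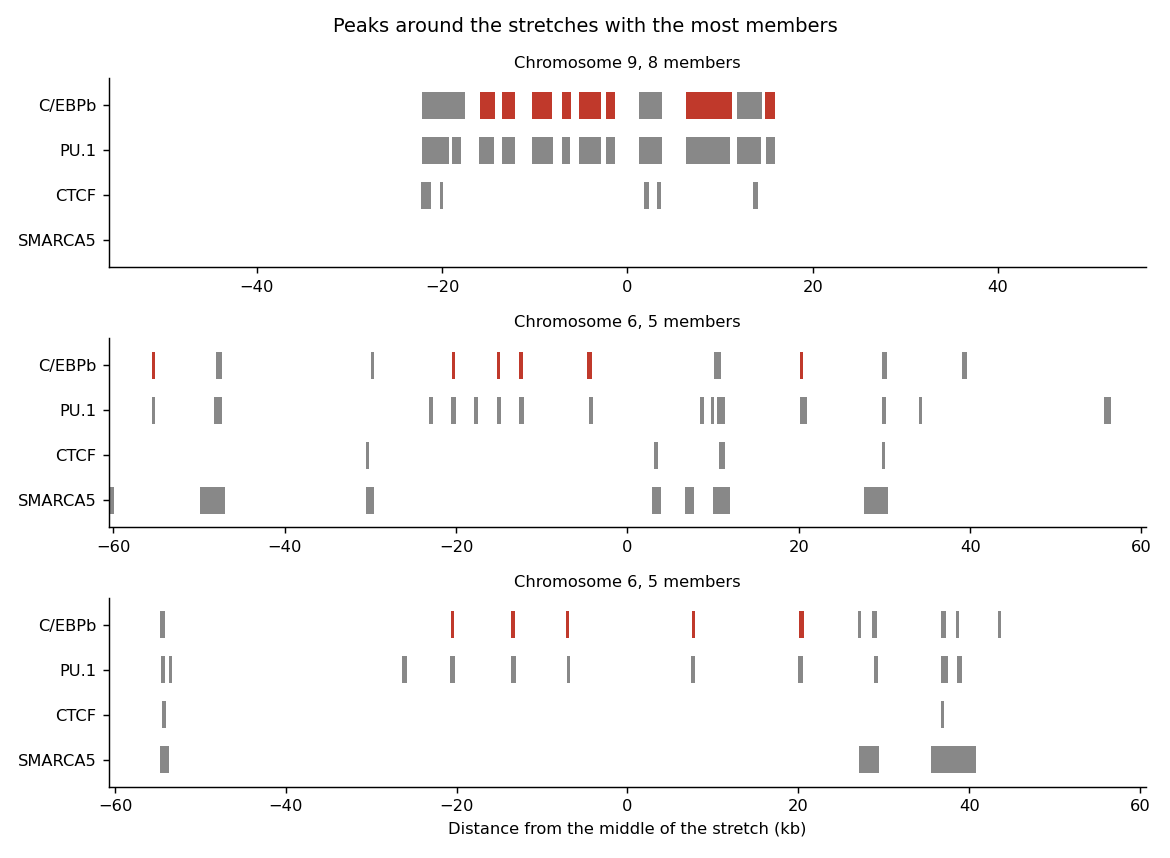
Peaks of the 4 lists around the 3 stretches with the most sites, by distance from the middle of each stretch (x axis, kb). Red marks C/EBPb peaks shared with PU.1 and free of SMARCA5 and CTCF, grey all other peaks, and peaks under 0.35 kb are drawn at that width. The chromosome 9 stretch has wide C/EBPb and PU.1 peaks side by side and an empty SMARCA5 row.

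Chromosome X had the largest share of shared sites without SMARCA5. It was 37.5% (120 of 320, 32.4 to 42.9%), against 23.4 to 34.0% over the 19 autosomes. Chromosome 18 was the highest autosome at 34.0% (29.9 to 38.3%), and its interval overlapped that of X. SMARCA5 was sparse on X, with 4.67 peaks per Mb against 12.1 to 21.9, and so were C/EBPb, with 4.09 against 10.6 to 18.1, and PU.1, with 9.63 against 22.3 to 38.6. Shared sites on X also had a lower PU.1 -log10 q, with a median of 64.5 against 82.3 to 102.4. Shares were also taken within quintiles of PU.1 -log10 q, from lowest to highest. On X they were 41.6% (31.2 to 52.7%), 48.2% (37.9 to 58.7%), 30.3% (20.6 to 42.2%), 36.8% (26.3 to 48.6%) and 8.33% (2.32 to 25.8%). On the autosomes they were 41.0%, 35.01%, 25.9%, 19.3% and 10.3%. X was higher in 4 of 5 quintiles, with 24 to 85 sites in each. Its interval lay above the autosomal share only in the quintiles with 48.2% and 36.8%, and included it in the others.

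Sites on X were also the most remote. The median distance to SMARCA5 was 20918 bp, against 8808 to 15804 bp on the autosomes. The site farthest from SMARCA5 was chrX:120407304-120407799, at 3.73 Mb, with a C/EBPb fold of 24.9 and a PU.1 fold of 18.6, both above the medians. Next came chrX:145729525-145730271 at 2.71 Mb, with folds of 12.3 and 21.5 and summits 523 bp apart. In the third place was chr16:73567296-73567783 at 1.95 Mb, with folds of 8.46 and 9.47. By contrast, the summit distance on X, 48.5 bp, was within the autosomal range of 42 to 61 bp.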

How the data were processed

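Consensus peak lists for C/EBPb, PU.1, CTCF (narrow, with summits) and SMARCA5 (broad) were used as the authors deposited them on mm39. The submitters' processing notes name MACS2 2.2.7.1, deepTools 3.5.1, Picard 2.27.4 and STAR 2.7.9a without saying what each did. How peaks of several libraries became a consensus is not given in the sources used here. The deposited fold enrichment was read as a ratio over local background, the deposited -log10 q as its adjusted significance, and the deposited score only for its decimals. A total of 0 columns of values belonged to a single sample, so no value could be tied to a library, and H3K27ac was not analysed here.

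Overlaps, summit distances and edge-to-edge distances to the nearest peak were computed with Python 3.11.15, NumPy 2.4.6, pandas 2.3.3 and SciPy 1.17.1, and drawn with matplotlib 3.10.9. The interval steps were tested on simulated peaks. Overlap meant at least 1 bp shared. Shares have Wilson intervals, and medians exact binomial (order statistic) intervals, at 95%. The combined range of a difference starts at the lower bound of the first median minus the upper bound of the other. It ends at the upper bound of the first minus the lower bound of the other. Quintiles are of the 16753 shared sites. Peaks of 1 factor share libraries and are not independent, so intervals are too narrow for statements beyond these lists.

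Sites named are the 5 with the highest C/EBPb fold, the 5 with the highest PU.1 fold, the 5 with the best sum of ranks, the 3 farthest from SMARCA5 and the 3 stretches of 50 kb with the most sites. Members, classes and lists were chosen with earlier results of these data known. Alternatives covered the overlap needed, the SMARCA5 and C/EBPb lists, chromosomes, partner choice and strength. No mm39 sequence or annotation was used, so genes, motifs and sequences are not given.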

Additional observations from a re-analysis of the deposited data

Results flagged for a closer look

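The deposited scores carry decimals, which no comparison above used. A score ending in an odd multiple of 0.25, which a mean of 4 whole numbers can give and a mean of 2 cannot, was found in the C/EBPb score at 1481 of the 4434 sites without SMARCA5 (33.4%, Wilson 95% interval 32.0 to 34.8%) and in the PU.1 score at 1650 (37.2%, 35.8 to 38.6%). The shares were larger at shared sites with SMARCA5, at 40.3% for C/EBPb and 45.9% for PU.1. They were smaller where a factor was alone, at 21.2% for C/EBPb and 29.5% for PU.1. How the scores were combined is not given in the sources used here, and what these decimals say of the number of libraries was not tested.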

How the results depend on the processing

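Of 122 recomputed values, 89 stayed within the interval or combined range of the value above, 28 left it and 5 changed sign. Of 92 differences of medians, 87 kept their direction. The share without SMARCA5 depended most on the SMARCA5 list.

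With SMARCA5 peaks over 5 kb left out, the share was 43.5%, the median summit distance 55 bp and its difference from sites with SMARCA5 -9 bp. The other differences from those sites were -1.02 and 0.296 for C/EBPb -log10 q and fold, both with intervals that include 0, -32 bp for C/EBPb width, and -42.8 and -1.98 for PU.1 -log10 q and fold. The distance to SMARCA5 differed by -617 bp from C/EBPb alone, against 500 bp before, and by -3402 bp from PU.1 alone.

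With the upper 50% of the SMARCA5 list by fold, the share was 67.4%, the summit distance 58 bp and its difference -7 bp. The C/EBPb -log10 q difference turned to 5.69, and the C/EBPb fold and width differences were 0.517 and -19 bp. PU.1 differed by -41.8 (-log10 q) and -2.19 (fold). The median distance to SMARCA5 was 22698 bp, -1454 bp from C/EBPb alone and -3423 bp from PU.1 alone. With no SMARCA5 within 1 kb, the difference from C/EBPb alone was -308.5 bp.

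With the upper 50% of C/EBPb peaks by -log10 q, the share was 25.2%, the summit distance 46 bp, and the differences -35.1 (C/EBPb -log10 q), 0.629 (C/EBPb fold) and -68.0 (PU.1 -log10 q). An overlap of 50% with PU.1 gave a summit distance of 47 bp, and SMARCA5 judged at the summit a share of 27.2%. Within deciles of C/EBPb -log10 q the width difference was -23.5 bp. Within deciles of PU.1 -log10 q, an alternative chosen after seeing the data, the differences were -1.45 for PU.1 -log10 q, which the deciles hold nearly constant, 2.76 for PU.1 fold and -18.9 bp for summit distance. Apart from these, the cause of each change was not tested. Read depth is unknown, and weak SMARCA5 binding below the authors' threshold cannot be told apart from its absence. No paired analysis was possible because no replicate number belongs to a peak.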
